A study of Mus musculus with 24 samples.

Results

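The aGC response of invariant natural killer T (iNKT) cells was compared between offspring of dams with different fecal transplant donors, as a difference of responses, in the 12 of 24 libraries that belonged to the 4 groups with a mean Cd8a level below 20 CPM (CPM, counts scaled by TMM to a common library size). The cells were sorted from mesenteric lymph nodes of C57BL/6J mice at 24 h after oral gavage of 2 µg alpha-galactosylceramide (aGC), a CD1d-bound lipid antigen, in 200 µL of PBS, or of the vehicle alone. The dams had been given a fecal transplant (FT) from wild-type donors (WT FT) or from donors without CD1d (KO FT). The 4 groups were WT FT females after PBS, WT FT males after aGC, KO FT females after PBS and KO FT males after aGC, with 3 libraries each. Offspring of both kinds of dam were themselves labelled C57BL/6J, so that the CD1d deletion was in the donors of the feces. The labels give no age, litter, cage or sort gate, and do not say whether the 3 libraries of a group were separate mice. Litter and cage cannot be told apart from the donor.

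The groups were selected on the measured level of Cd8a, which encodes the CD8 alpha chain that mouse iNKT cells usually lack. Cd8a had group means of 6.29 ± 0.719 CPM (SD, n = 3) in WT FT PBS females, 6.21 ± 0.681 CPM in WT FT aGC males, 5.19 ± 0.424 CPM in KO FT PBS females and 7.58 ± 0.468 CPM in KO FT aGC males. The highest chosen group was thus at 7.58 CPM, and the lowest group outside the threshold, KO FT PBS males, was at 136.2 CPM. The other 12 libraries (WT FT and KO FT males after PBS and females after aGC) had means of 136.2 to 286 CPM. Every number named a difference below is the KO FT response (aGC minus PBS, log2) minus the WT FT response. A positive difference, or "higher", means that the response was more positive in KO FT. In both donor arms aGC was given to males and PBS to females, so a sex effect that is equal in both arms cancels. A donor effect that differs between the sexes does not cancel and cannot be told apart from the difference of responses. Genes on chromosomes X and Y were left out.

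iNKT cells are T cells with a semi-invariant receptor that recognises lipids held by the CD1d molecule. After binding aGC they release cytokines such as interferon gamma and IL-4 within hours and then grow, divide and change their receptors. They are sorted into iNKT1, iNKT2 and iNKT17 subsets by the regulators T-bet, GATA3 with high PLZF, and RORγt. Transplanted gut bacteria supply lipids and other signals that these cells can meet in the intestine and in the nodes that drain it.

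The 12 libraries held 13157498 to 37016768 estimated counts each, so that 3 counts, the limit that a count of 0 allows, were worth 0.0799 to 0.221 CPM (counting error only). The iNKT label was matched by its markers in all 12 libraries. Trav11, the invariant V alpha segment, was at 403 to 879 CPM, Traj18 at 55.0 to 117 CPM and Zbtb16, which encodes PLZF, at 38.0 to 75.9 CPM. The female and male labels were matched by Xist and Ddx3y in all 12. Correlations of log2 CPM between libraries were 0.977 to 0.987 within a group and 0.932 to 0.977 between groups. Group means below are given ± SD over 3 libraries. The p-values measure the spread between the 3 libraries of a group, which may be technical.

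The WT FT and KO FT responses to aGC differed at many genes. Of 15458 autosomal and mitochondrial genes tested, 3540 (22.9%) had a higher response in KO FT and 3193 (20.7%) a lower one, 43.6% in all (edgeR quasi-likelihood test, two-sided, Benjamini-Hochberg adjusted p under 0.05). The difference was at least 2-fold at 1596 of the higher and 867 of the lower genes, 15.9% of those tested. The median difference over all genes tested was 0.04. Among the higher genes the median WT FT response was -0.82 and the median KO FT response 0.16, and among the lower genes these were 0.72 and -0.07. These medians follow in part from how the genes were called. The response had the same direction in both arms and was smaller in KO FT at 1447 higher (40.9%) and 1475 lower genes (46.2%). Over all genes tested the share with this pattern was 42.6%. Opposite directions were seen at 1687 higher (47.7%) and 1315 lower genes (41.2%), against 33.4% of all genes tested. The gap between donors was wider after aGC than after PBS at 2469 higher genes (69.7%) and 2230 lower genes (69.8%), against 61.8% of all genes tested. With each group summed to 1 profile the difference in the 4 groups has no residual degrees of freedom and was not tested. A fit of all 8 such profiles gave another quantity, 1 donor-by-treatment term averaged over both sets of libraries, at which 0 genes passed (edgeR, smallest adjusted p = 0.054) and 997 had an unadjusted p under 0.05.

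The same difference was measured in the other 12 libraries, which share no library with the 4 groups and in which the sexes are exchanged. There 34.1% of genes passed, and the difference between both sets of libraries itself passed at 35.7% of genes (contrast in the same edgeR fit). Of the genes tested, 2605 passed in both sets, of which 1761 had the same sign and 844 the opposite one. The 1761 genes were 26.2% of those passing in the low-Cd8a libraries and 33.4% of those passing in the other set. Across the 8255 genes with a mean of at least 10 CPM the differences had r = 0.22, a description across genes, which are not replicates. Sex, Cd8a level and set cannot be told apart in this comparison.

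**Figure D1:**
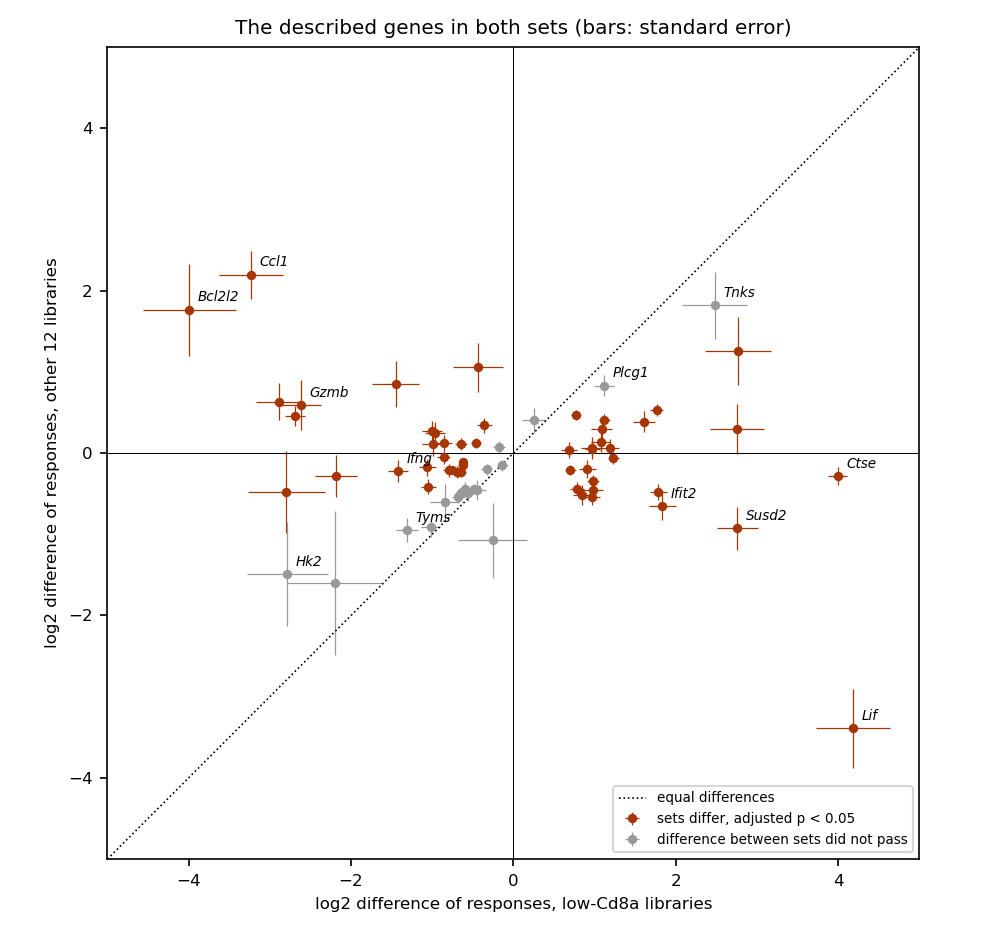
Difference of the aGC responses (KO FT minus WT FT, log2) of the genes described here in the low-Cd8a libraries (x axis) and in the other 12 libraries (y axis), with standard errors as bars. Brown points are genes whose difference differed between both sets at an adjusted p under 0.05, and Ccl1 (-3.23 and 2.20) and Lif (4.18 and -3.39) had opposite signs.

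The responses of interferon gamma, IL-4 and TNF genes to aGC were smaller in KO FT than in WT FT. All 3 genes were higher after aGC than after PBS in every library of both arms. Ifng stood at 18.8, 17.7 and 18.7 CPM after PBS and 135, 125 and 138 CPM after aGC in the WT FT libraries, and at 23.9, 28.3 and 24.7 CPM after PBS and 66.4, 72.8 and 67.7 CPM after aGC in the KO FT libraries. The 4 groups did not overlap, and the KO FT libraries were above the WT FT libraries after PBS and below them after aGC. Ifng (chromosome 10, 118441046 to 118445892, GRCm38) had a difference of -1.42 (SE 0.12, adjusted p = 6.7e-09), a response 2.67-fold smaller in KO FT. Il4 stood at 58.3, 56.6 and 55.1 CPM after PBS and 182, 176 and 187 CPM after aGC in the WT FT libraries, and at 53.5, 56.7 and 60.9 CPM after PBS and 126, 136 and 138 CPM after aGC in the KO FT libraries. The Il4 libraries of both arms overlapped after PBS, and all 3 WT FT libraries were above the KO FT libraries after aGC. Il4, the type 2 cytokine of iNKT cells, had a difference of -0.45 (SE 0.12, adjusted p = 0.0034), which became -0.25 (adjusted p = 0.067) with a correction for transcript length. Tnf, an inflammatory cytokine, had a difference of -0.36 (SE 0.09, adjusted p = 0.003), from group means of 30.9 ± 1.38 CPM after PBS and 168 ± 10.6 CPM after aGC in the WT FT libraries, and 30.5 ± 3.09 CPM after PBS and 129 ± 0.149 CPM after aGC in the KO FT libraries. Of the effector cytokine genes 2 of 14 were higher and 3 lower, with a median of -0.06, against 22.9% and 20.7% of all genes. In such pools fewer expressing cells and less RNA per cell cannot be told apart.

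Lif, a cytokine of the IL-6 family, had the largest positive difference among the genes described. Lif stood at 3.2, 2.12 and 3.31 CPM after PBS and 22.4, 26.6 and 21.8 CPM after aGC in the WT FT libraries, and at 0.158, 0.133 and 0.0879 CPM after PBS and 21.1, 15.7 and 20.8 CPM after aGC in the KO FT libraries. After aGC the libraries of both arms lay between 15.7 and 26.6 CPM, whereas after PBS every KO FT library was below every WT FT library. The KO FT PBS libraries held 3, 2 and 2 counts, together 0.123 CPM with an exact 95% Poisson interval of 0.0495 to 0.254 CPM (counting error only). Against that interval the KO FT level after aGC was 156-fold higher (75.8 to 388), against 8.19-fold in WT FT. The fitted difference was 4.18 (SE 0.46, adjusted p = 1.7e-07), and its size depends on those few counts. In the other 12 libraries the few counts were in the WT FT PBS libraries, at 0.106 ± 0.0937 CPM, and the difference was -3.39.

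More chemokine genes were lower than higher in KO FT. Ccl1 stood at 0.613, 0.344 and 0 CPM after PBS and 363, 356 and 404 CPM after aGC in the WT FT libraries, and at 1.05, 1.06 and 0.879 CPM after PBS and 84.4, 91 and 108 CPM after aGC in the KO FT libraries. Ccl1, a chemokine for CCR8, was near the limit of detection after PBS in both arms, and after aGC all 3 KO FT libraries were below all 3 WT FT libraries. Its difference was -3.23 (SE 0.40, adjusted p = 7.6e-07), with 29 counts in all in the 3 WT FT PBS libraries, 23 of them in 1 library. Xcl1 stood at 83.3, 77.5 and 76.2 CPM after PBS and 199, 193 and 214 CPM after aGC in the WT FT libraries, and at 88.8, 95 and 103 CPM after PBS and 108, 124 and 144 CPM after aGC in the KO FT libraries. Xcl1, which attracts XCR1-bearing dendritic cells, had a difference of -0.96 (SE 0.12, adjusted p = 1.4e-06), and all 3 KO FT libraries were above the WT FT libraries after PBS and below them after aGC. Ccl4, an inflammatory chemokine, had a difference of -0.85 (SE 0.18, adjusted p = 4.7e-04), from means of 8.86 ± 0.463 CPM after PBS and 135 ± 8.48 CPM after aGC in the WT FT libraries, and 8.42 ± 1.8 CPM after PBS and 71.7 ± 8.36 CPM after aGC in the KO FT libraries. Of the chemokine ligand genes 1 of 10 were higher and 5 lower, with a median of -0.55, and in the other 12 libraries the median was 1.05.

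**Figure D2:**
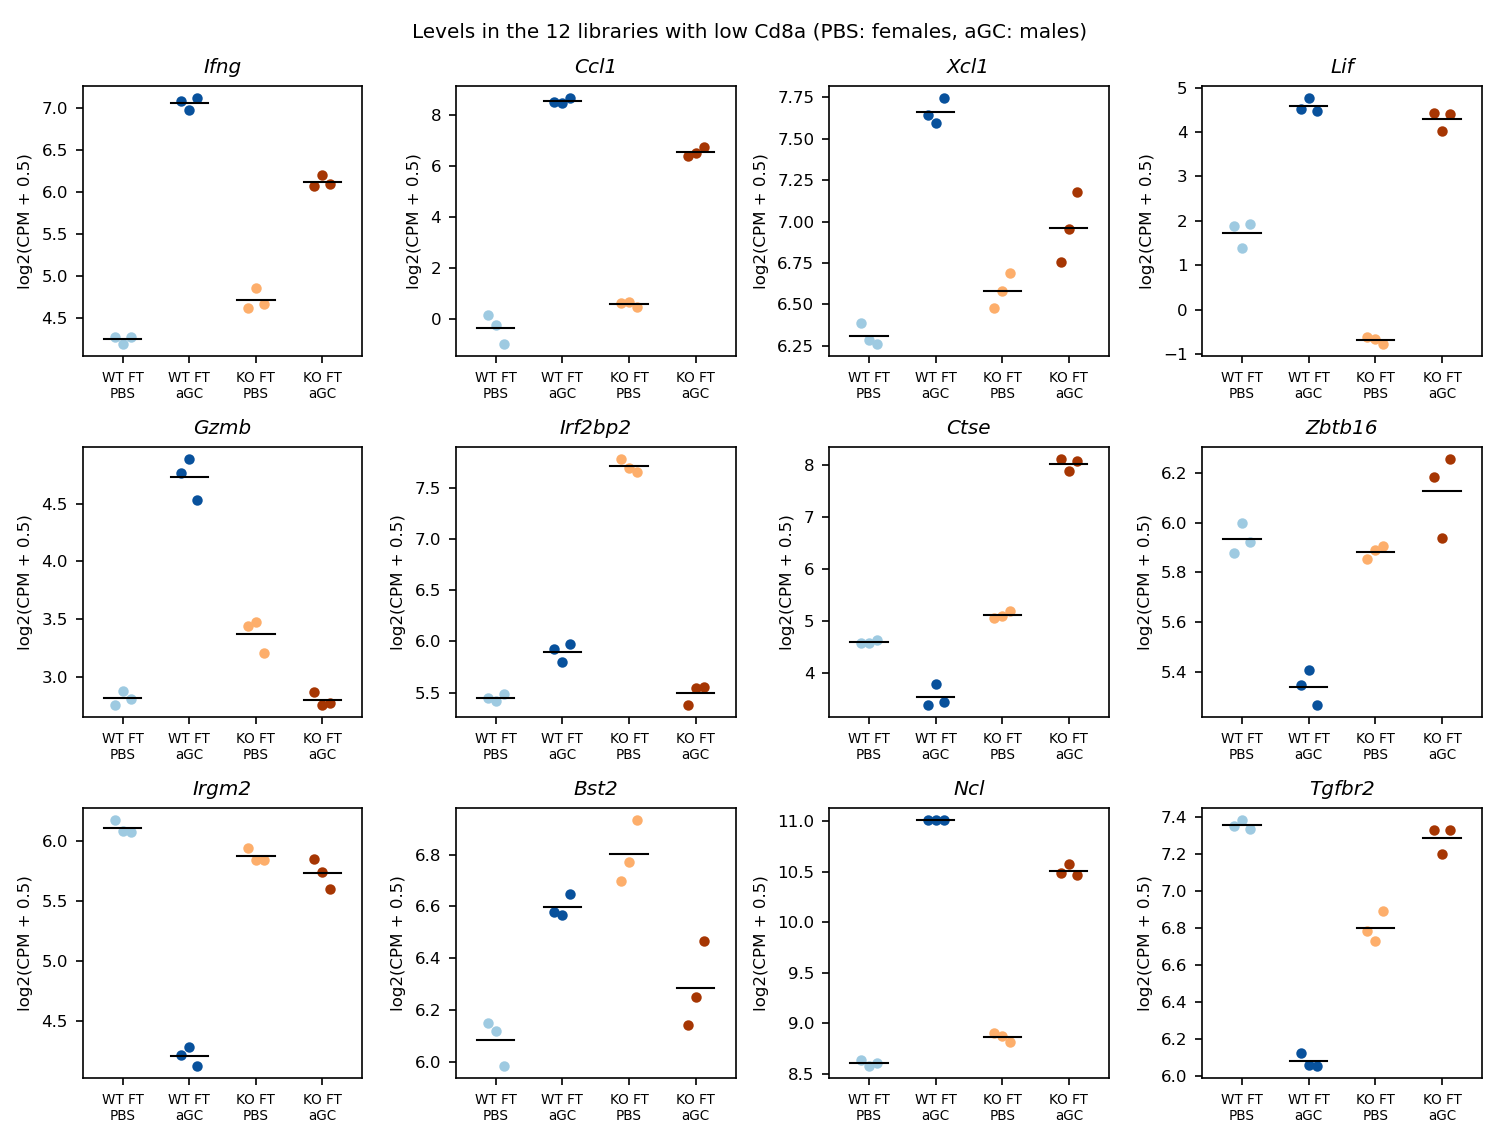
Level of 12 genes, as log2(CPM + 0.5), in each of the 12 libraries, with points for libraries and a line for the group mean. Ifng, Ccl1, Xcl1 and Ncl were higher after aGC in both arms, by less in KO FT, Ctse was highest in the KO FT aGC libraries (235 to 274 CPM) and Irf2bp2 in the KO FT PBS libraries (202 to 219 CPM).

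Penk, which encodes the opioid precursor proenkephalin, was detected at appreciable levels in 1 group of the 4. Its levels were 41.2, 46.2 and 46.5 CPM in WT FT after aGC. It had 0 counts in all 3 WT FT PBS libraries, so that the aGC level was at least 220.1-fold higher than the limit that 0 counts allow in a library. The KO FT libraries had 5, 5 and 2 counts after PBS and 1, 0 and 2 counts after aGC, so that no fold and no difference is given. Outside the 4 groups Penk was at 9.58 ± 1.51 CPM in KO FT females after aGC, 8.57 ± 1.34 CPM in WT FT males after PBS, 0.933 ± 0.224 CPM in WT FT females after aGC and 0.0296 ± 0.0513 CPM in KO FT males after PBS. Levels of several CPM were thus seen in both donors and after both treatments.

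Granzyme B responded in opposite directions in the arms, and more iNKT1 and cytotoxic genes were lower than higher. Gzmb stood at 6.26, 6.83 and 6.49 CPM after PBS and 26.7, 29 and 22.7 CPM after aGC in the WT FT libraries, and at 10.3, 10.6 and 8.74 CPM after PBS and 6.82, 6.25 and 6.33 CPM after aGC in the KO FT libraries. Gzmb, which encodes granzyme B, was higher after aGC than after PBS in every WT FT library and lower in every KO FT library, a difference of -2.61 (SE 0.25, adjusted p = 2.5e-08). The iNKT1 and cytotoxic list shares the lower genes Ifng, Xcl1 and Ccl5 with the cytokine and chemokine lists. Of its genes 3 of 27 were higher (11.1%) and 9 lower (33.3%), against 22.9% and 20.7% of all genes tested. The list's median was -0.14. In the other 12 libraries 11 of the list's genes were higher and 3 lower, and the difference between both sets passed at 15. Tbx21, which encodes T-bet, was at 502 ± 19.99 and 418 ± 4.94 CPM in WT FT and 557 ± 8.56 and 422 ± 6.84 CPM in KO FT (PBS and aGC), a difference of -0.14 (SE 0.07, adjusted p = 0.12) that did not pass and was -0.42 (adjusted p = 6.3e-05) with the length correction.

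Factors that the T cell receptor induces were split between higher and lower responses in KO FT. Nfatc1 stood at 329.9, 316 and 334 CPM after PBS and 333, 339.6 and 316 CPM after aGC in the WT FT libraries, and at 204, 219.5 and 212 CPM after PBS and 477, 446 and 471 CPM after aGC in the KO FT libraries. Nfatc1, a calcium-dependent factor that activates cytokine genes, overlapped between PBS and aGC in WT FT and was higher in every aGC library than in every PBS library in KO FT, a difference of 1.12 (SE 0.07, adjusted p = 4.4e-11). Egr1, an immediate-early factor, was higher after aGC in both arms, by more in KO FT, with a difference of 0.70 (SE 0.06, adjusted p = 1.5e-08). Myc stood at 156, 157 and 151 CPM after PBS and 841, 855 and 841 CPM after aGC in the WT FT libraries, and at 182, 181 and 186 CPM after PBS and 474, 578 and 609 CPM after aGC in the KO FT libraries. Myc, which drives growth and ribosome production, was higher after aGC in both arms, and all 3 KO FT libraries were below the WT FT libraries after aGC, a difference of -0.86 (SE 0.10, adjusted p = 5.8e-07). Nfkbid, a nuclear regulator of NF-kB, had a difference of -0.46 (SE 0.06, adjusted p = 4.2e-06). Of the TCR-induced factors 10 of 32 were higher (31.2%) and 9 lower (28.1%), against 22.9% and 20.7% of all genes tested. Their median was -0.04. With the length correction the differences of Nfatc1 and Egr1 were 0.62 and 0.24, and both still passed, while the list had 4 higher and 12 lower members.

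Surface proteins of activation showed mixed differences. Cd69 stood at 66.3, 66.9 and 68.3 CPM after PBS and 361, 351 and 364 CPM after aGC in the WT FT libraries, and at 77.7, 74.5 and 70.7 CPM after PBS and 264, 261 and 239 CPM after aGC in the KO FT libraries. Cd69, an early activation marker that retains cells in tissue, was higher after aGC in both arms, and the KO FT aGC libraries were all below the WT FT aGC libraries, a difference of -0.64 (SE 0.07, adjusted p = 2.5e-07). Tnfrsf18, which encodes the co-stimulatory receptor GITR, had a difference of -0.68 (SE 0.08, adjusted p = 3.8e-07), from means of 414 ± 15.9 CPM after PBS and 553 ± 23.5 CPM after aGC in the WT FT libraries, and 484 ± 12.7 CPM after PBS and 405 ± 30.6 CPM after aGC in the KO FT libraries. Its level was higher after aGC in WT FT and lower after aGC in KO FT. Cd274, the inhibitory ligand PD-L1, had a difference of 0.69 (SE 0.10, adjusted p = 4.8e-06) and Nt5e, the ectoenzyme CD73, one of 0.96 (SE 0.10, adjusted p = 1.4e-07). With the length correction these were 0.23 and 0.58, and both still passed. Ctla4, an inhibitory receptor, was at 2.93 to 10.4 CPM in all 12 libraries and had a difference of -1.45 (SE 0.29, adjusted p = 2.9e-04). Of the activation and co-stimulatory genes 5 of 20 were higher and 7 lower, and of the co-inhibitory receptors 6 of 15 were higher and 3 lower (5 lower with the length correction). Of the follicular helper-like and regulatory genes, a list that shares Ctla4, 2 of 17 were higher and 6 lower.

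Genes of ribosomes and of respiration had lower responses in KO FT than in WT FT. Against 22.9% and 20.7% of all genes tested, 0 of 46 cytosolic ribosomal protein genes were higher and 45 lower (97.8%). Their differences had a median of -0.80 and a range of -1.44 to -0.27. Their median response was 1.21 in WT FT and 0.35 in KO FT. The KO FT libraries were above WT FT by a median of 0.33 after PBS and differed from them by -0.48 after aGC. Rpl4 stood at 822, 788 and 790.1 CPM after PBS and 1584, 1613 and 1585 CPM after aGC in the WT FT libraries, and at 898, 889 and 895 CPM after PBS and 1120, 1170 and 1193 CPM after aGC in the KO FT libraries. Rpl4, a protein of the large ribosomal subunit, kept the 4 groups apart, with a difference of -0.62 (SE 0.05, adjusted p = 6.8e-10), and Rpl7, of the same subunit, had one of -0.79 (SE 0.08, adjusted p = 4.8e-08). Of the ribosome biogenesis genes 2 of 27 were higher and 24 lower, with a median of -0.65. Ncl stood at 396, 381 and 389 CPM after PBS and 2060, 2059 and 2060 CPM after aGC in the WT FT libraries, and at 479, 469 and 451 CPM after PBS and 1438, 1525 and 1416 CPM after aGC in the KO FT libraries. Ncl, which encodes the nucleolar protein nucleolin, had a difference of -0.76 (SE 0.05, adjusted p = 1.0e-10), and Npm1, a nucleolar chaperone, one of -0.86 (SE 0.08, adjusted p = 8.3e-09). The ribosomal protein genes have many processed pseudogenes, which can take a share of their reads.

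Of the oxidative phosphorylation genes 0 of 43 were higher and 40 lower (93.0%), against 22.9% and 20.7% of all genes tested. The list's median was -0.71. In this list and in the ribosomal proteins, 0 genes were higher too by edgeR at an unadjusted p under 0.05 and by DESeq2 and limma-voom. The median response of the oxidative phosphorylation genes was 0.70 in WT FT and 0.05 in KO FT. After aGC 42 of 43 were above PBS in WT FT, and 24 of 43 were so in KO FT. Cox5a stood at 138, 126 and 129 CPM after PBS and 337, 314 and 359 CPM after aGC in the WT FT libraries, and at 158, 166 and 166 CPM after PBS and 176, 203 and 224 CPM after aGC in the KO FT libraries. Cox5a, a subunit of cytochrome c oxidase, had a difference of -1.06 (SE 0.11, adjusted p = 4.5e-08). Atp5a1, the alpha subunit of ATP synthase, had one of -0.63 (SE 0.06, adjusted p = 1.5e-08). In the other 12 libraries the medians of the ribosomal protein, ribosome biogenesis and oxidative phosphorylation genes were -0.15, -0.17 and -0.16, and the difference between both sets passed at 39 of 46, 17 of 27 and 30 of 43 genes.

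**Figure D3:**
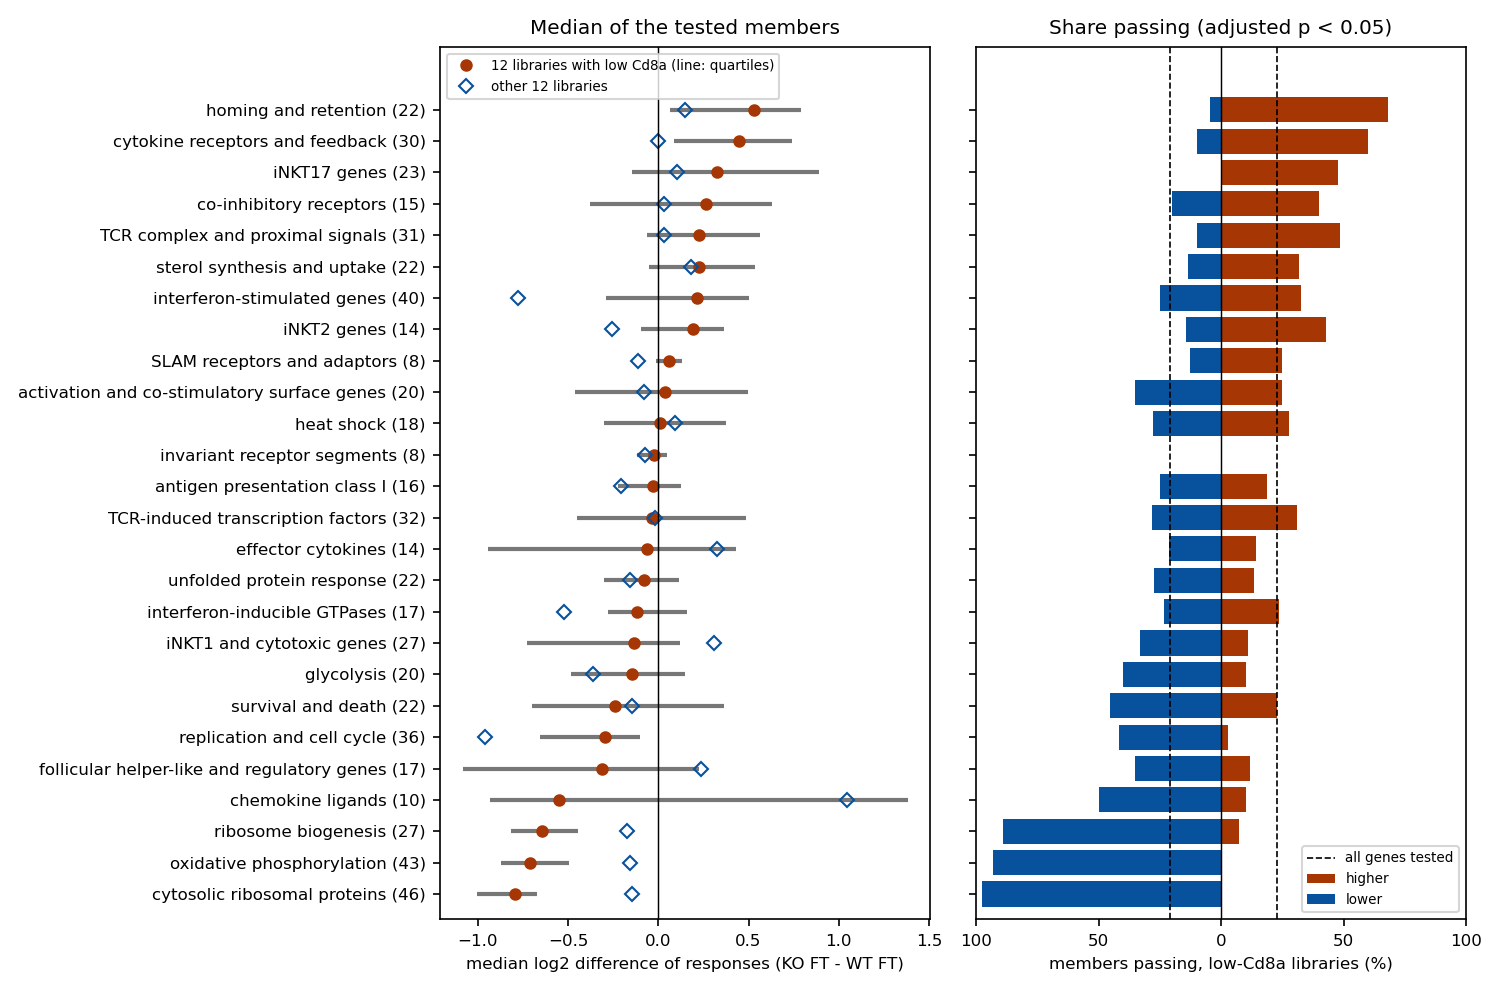
Left, median log2 difference of responses of each gene list in the low-Cd8a libraries (brown, with quartiles) and in the other 12 libraries (blue diamonds), with the number of tested members in brackets. Right, share of members passing in each direction in the low-Cd8a libraries, with dashed lines at the shares of all genes tested (22.9% higher and 20.7% lower).

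The difference of responses moved with transcript length over the whole table. The median annotated transcript length was 1888 nt for the higher genes, 915 nt for the lower and 1356 nt for genes that did not pass. In 10 bins of length the median difference was -0.33 in the shortest bin and 0.51 in the longest, against -0.07 and 0.27 in the other 12 libraries. The ribosomal protein and oxidative phosphorylation genes are short, with median lengths of 649 and 702 nt. With a correction of each library for length, an alternative chosen after seeing the data, 45 of 46 ribosomal protein, 22 of 27 biogenesis and 38 of 43 oxidative phosphorylation genes were still lower. Their medians were then -0.67, -0.55 and -0.58. Over all genes 2913 were higher and 3531 lower after the correction, and 5537 passed with the same sign both with and without it. The source of this relation was not tested.

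**Figure D4:**
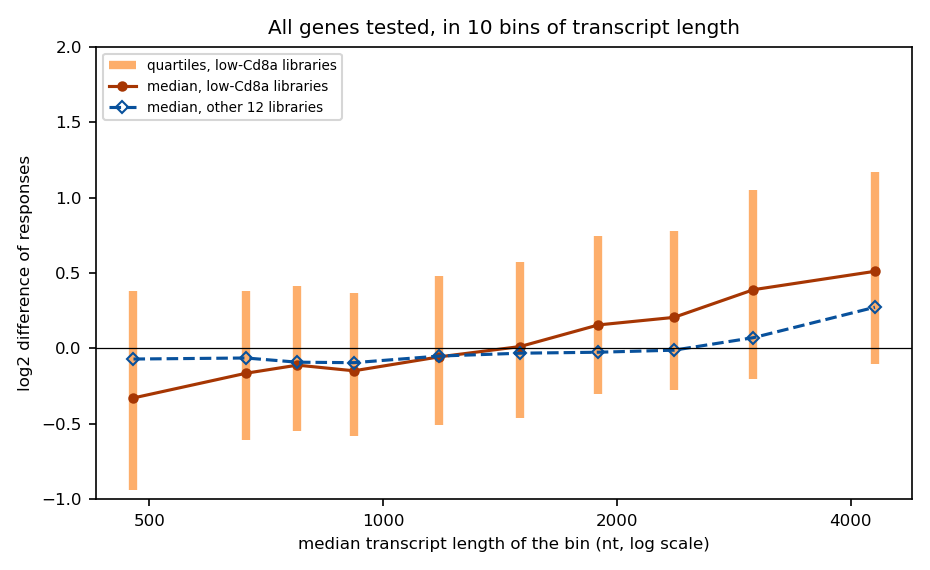
Median log2 difference of responses of all genes tested in 10 bins of transcript length (log axis), with bars for the quartiles in the low-Cd8a libraries. The brown line climbs from -0.33 to 0.51, and the line of the other 12 libraries (blue) stays between -0.09 and 0.07 in the first 9 bins and is at 0.27 in the longest.

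Replication genes that passed had a lower response in KO FT, except Ccnd3, a G1 cyclin chosen here after its values were seen, with a difference of 0.43 (SE 0.08, adjusted p = 0.000129). Of the replication and cell cycle genes 1 of 36 were higher (2.78%) and 15 lower (41.7%), against 22.9% and 20.7% of all genes tested. The list had a median of -0.29 and median responses of 1.58 in WT FT and 1.10 in KO FT. Tyms stood at 23.9, 23.2 and 24.4 CPM after PBS and 79.4, 104 and 96 CPM after aGC in the WT FT libraries, and at 26.9, 29.9 and 26.8 CPM after PBS and 43.2, 39.5 and 48.3 CPM after aGC in the KO FT libraries. Tyms, thymidylate synthase of DNA synthesis, kept the WT FT and KO FT libraries apart after aGC, with a difference of -1.31 (SE 0.14, adjusted p = 8.4e-08). Mcm6, a subunit of the replicative helicase, had means of 329 ± 9.96 CPM after PBS and 1015 ± 29.1 CPM after aGC in the WT FT libraries, and 324 ± 13 CPM after PBS and 712 ± 13.3 CPM after aGC in the KO FT libraries, a difference of -0.49 (SE 0.06, adjusted p = 4.2e-07). Mki67, a marker of dividing cells, was at 2.02 to 8.04 CPM in the 12 libraries, and its difference of -0.25 (SE 0.42, adjusted p = 0.66) did not pass. In the other 12 libraries 27 of 36 replication genes were lower, with a median of -0.96.

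Glycolytic genes were lower at 8 of 20 members and higher at 2, with a median of -0.14. Hk2 stood at 0.853, 0.459 and 0.338 CPM after PBS and 22.1, 26.7 and 22.4 CPM after aGC in the WT FT libraries, and at 2.73, 1.46 and 0.791 CPM after PBS and 9.02, 8.24 and 10.3 CPM after aGC in the KO FT libraries. Hk2, the inducible hexokinase that starts glycolysis, was low after PBS in both arms, and all 3 KO FT libraries were below the WT FT libraries after aGC, a difference of -2.79 (SE 0.50, adjusted p = 8.4e-05). Eno1, enolase, and Pkm, pyruvate kinase, had differences of -0.65 (SE 0.07, adjusted p = 6.1e-08) and -0.66 (SE 0.07, adjusted p = 1.3e-07). Eno1 was at 1724 ± 22 and 2546 ± 143 CPM in WT FT and 2129 ± 10.04 and 2005 ± 83.6 CPM in KO FT (PBS and aGC).

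Lipid synthesis and stress genes moved in both directions, as did all genes tested (22.9% higher and 20.7% lower). Higher and lower shares were 31.8% and 13.6% for the sterol list, 13.6% and 27.3% for the unfolded protein response and 27.8% each for heat shock. Survival and death genes were at 22.7% and 45.5%. Scd2, a fatty acid desaturase, was lower after aGC in every WT FT library and higher in every KO FT library, from means of 43.8 ± 1.87 CPM after PBS and 30.1 ± 2.24 CPM after aGC in the WT FT libraries, and 22.2 ± 2.56 CPM after PBS and 46.4 ± 1.63 CPM after aGC in the KO FT libraries, with a difference of 1.61 (SE 0.13, adjusted p = 2.8e-09). Srebf1, the regulator of lipid synthesis, had a difference of 1.09 (SE 0.13, adjusted p = 6.1e-07). Fasn, fatty acid synthase, had one in the other direction, -0.999 (SE 0.12, adjusted p = 7.9e-07). Of the list of sterol synthesis and uptake, which also counts the fatty acid genes Scd2 and Fasn, 7 of 22 were higher and 3 lower. In the unfolded protein response 3 of 22 were higher and 6 lower, among them Pdia6, a protein disulfide isomerase, with -0.68 (SE 0.06, adjusted p = 4.3e-09) and Atf4, the stress-induced factor, with -0.70 (SE 0.08, adjusted p = 1.7e-07). Of the heat shock genes 5 of 18 were higher and 5 lower, and Hspe1, the mitochondrial chaperonin partner, had a difference of -0.99 (SE 0.14, adjusted p = 5.4e-06). Of the survival and death genes 5 of 22 were higher and 10 lower, with Bid, a pro-apoptotic BH3 protein, at -1.05 (SE 0.09, adjusted p = 1.0e-08). Bcl2l2, a survival protein, had a fitted difference of -3.99 (SE 0.57, adjusted p = 6.0e-06) at 0.201 to 3.10 CPM in all 12 libraries.

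Interferon-stimulated genes went in both directions. These genes respond to interferons through the interferon-stimulated response element (ISRE), which is bound by IRF proteins. The 160 bases before the start site are shown for a pair of genes that were higher, Irgm2 and Ifit1bl1, and a pair that were lower, Bst2 and Gbp2, since all 4 hold the same motif. Only promoter sequences that hold the motif were taken for display, and Ifit1bl1 had 2 promoter sequences. The motif is GAAANNGAAA on either strand, in capitals, and overlapping matches in Bst2 run together. Sequences are from RefSeq (GRCm38.p6), 5′ to 3′ along the gene, at chr11:58214817-58214976 (plus strand), chr19:34601969-34602128 (minus strand), chr8:71537473-71537632 (minus strand) and chr3:142620503-142620662 (plus strand).
Irgm2: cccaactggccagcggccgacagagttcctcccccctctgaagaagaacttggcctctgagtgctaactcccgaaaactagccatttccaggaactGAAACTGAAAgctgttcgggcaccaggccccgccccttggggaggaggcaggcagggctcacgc
Ifit1bl1: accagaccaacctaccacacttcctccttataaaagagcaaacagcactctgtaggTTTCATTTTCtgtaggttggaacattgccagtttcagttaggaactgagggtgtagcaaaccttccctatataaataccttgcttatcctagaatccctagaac
Bst2: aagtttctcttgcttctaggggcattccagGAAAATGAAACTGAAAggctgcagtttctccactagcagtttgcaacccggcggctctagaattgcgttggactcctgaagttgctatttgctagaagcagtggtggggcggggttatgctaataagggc
Gbp2: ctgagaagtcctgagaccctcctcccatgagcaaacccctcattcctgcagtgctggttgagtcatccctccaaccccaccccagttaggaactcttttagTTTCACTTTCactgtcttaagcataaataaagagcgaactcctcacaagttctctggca
The first base of the motif lies 64, 104, 130 and 59 bases before the start in these 4 genes. In the 250 bases before the start, it was found at 3.46% of 27025 genes with a promoter sequence, and at 13 of the 30 interferon-stimulated genes with a sequence. It was found at 5 of 10 higher, 4 of 9 lower and 4 of 11 other members of that list. Of the 17 interferon-inducible GTPases tested, 10 had a promoter sequence and 9 of these held the motif. A match of letters is a description and not a bound site.

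Irgm2 stood at 71.7, 67.3 and 66.8 CPM after PBS and 18.1, 19 and 16.9 CPM after aGC in the WT FT libraries, and at 61.1, 56.7 and 56.8 CPM after PBS and 57.2, 53 and 48.1 CPM after aGC in the KO FT libraries. Irgm2, a GTPase of the defence against intracellular microbes, was lower in the WT FT aGC libraries than in all others, and its KO FT libraries overlapped between PBS and aGC. Its difference was 1.78 (SE 0.10, adjusted p = 1.2e-11). Ifit1bl1 stood at 201, 203 and 209.9 CPM after PBS and 59, 59.8 and 61.4 CPM after aGC in the WT FT libraries, and at 234, 234 and 204 CPM after PBS and 125, 110.5 and 105 CPM after aGC in the KO FT libraries. Ifit1bl1, of a family of RNA-binding antiviral proteins whose members share sequence so that reads can be split between them, was lower after aGC in both arms and by less in KO FT, a difference of 0.79 (SE 0.08, adjusted p = 1.1e-07). Ifit2, of the same family, and Ddx58, which encodes the RNA sensor RIG-I, had differences of 1.83 (SE 0.17, adjusted p = 1.2e-08) and 1.19 (SE 0.11, adjusted p = 2.1e-08). Bst2 stood at 70.6, 69.1 and 62.8 CPM after PBS and 95, 94.2 and 99.7 CPM after aGC in the WT FT libraries, and at 103, 109 and 122 CPM after PBS and 70.2, 75.6 and 88 CPM after aGC in the KO FT libraries. Bst2, the antiviral protein tetherin, was higher after aGC than after PBS in every WT FT library and lower in every KO FT library, a difference of -1.02 (SE 0.12, adjusted p = 5.2e-07). Gbp2, a guanylate-binding GTPase, had means of 166 ± 1.17 CPM after PBS and 242 ± 14.8 CPM after aGC in the WT FT libraries, and 189 ± 8.64 CPM after PBS and 182 ± 18.6 CPM after aGC in the KO FT libraries, a difference of -0.60 (SE 0.08, adjusted p = 2.9e-06).

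Of the interferon-stimulated genes 13 of 40 were higher and 10 lower, with a median of 0.21. Their median response was -1.05 in WT FT and -0.90 in KO FT, and the KO FT libraries were above WT FT by a median of 0.58 after PBS and 0.56 after aGC. Elsewhere, in the other 12 libraries, the median difference was -0.78, with 1 higher and 31 lower, and the difference between both sets passed at 29 of 40 genes. With the length correction 10 were higher and 11 lower, with a median of 0.02. Of the interferon-inducible GTPases 4 of 17 were higher and 4 lower (23.5% each), and 2 and 9 were so with the length correction. Of the class I presentation genes 3 of 16 were higher and 4 lower. Among them Cd1d1, which encodes the molecule that presents aGC, had means of 111 ± 8.87 CPM after PBS and 30.2 ± 2.38 CPM after aGC in the WT FT libraries, and 104 ± 3.88 CPM after PBS and 53.4 ± 4.1 CPM after aGC in the KO FT libraries and a difference of 0.91 (SE 0.11, adjusted p = 5.2e-07). Psmb8, a subunit of the immunoproteasome, had a difference of -0.33 (SE 0.07, adjusted p = 4.5e-04).

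Genes of the iNKT lineage and its subsets were measured next. Zbtb16 stood at 58.3, 63.5 and 60.1 CPM after PBS and 40.2, 42 and 38 CPM after aGC in the WT FT libraries, and at 57.3, 58.8 and 59.4 CPM after PBS and 72.3, 60.8 and 75.9 CPM after aGC in the KO FT libraries. Zbtb16, the lineage factor PLZF, was lower after aGC than after PBS in every WT FT library, while every KO FT aGC library was above the KO FT PBS libraries, a difference of 0.85 (SE 0.12, adjusted p = 5.5e-06) that was 0.38 and still passed with the length correction. Its difference was -0.52 in the other 12 libraries. Il17rb, the IL-25 receptor of iNKT2 cells, had means of 234 ± 7.86 CPM after PBS and 87.3 ± 3.05 CPM after aGC in the WT FT libraries, and 177 ± 5.97 CPM after PBS and 130.4 ± 2.6 CPM after aGC in the KO FT libraries, a difference of 0.98 (SE 0.07, adjusted p = 3.6e-10). Cd4, the co-receptor carried by part of the iNKT cells, had a difference of 0.97 (SE 0.13, adjusted p = 2.3e-06). Of the iNKT2 genes 6 of 14 were higher (42.9%) and 2 lower (14.3%), against 22.9% and 20.7% of all genes tested. The 2 lower members were Il4, described above, and Plac8. The list's median was 0.19. The length correction gave 6 higher and 3 lower, with a median of -0.05. The other 12 libraries had 2 higher and 8 lower, with a median of -0.25. Gata3 had a difference of 0.26 (SE 0.15, adjusted p = 0.17), which did not pass and was 0.49 (adjusted p = 0.01) with the length correction. Bcl6, the follicular helper factor, was at 3.61 to 9.22 CPM with a difference of -0.44 (SE 0.30, adjusted p = 0.26), which did not pass and was -0.90 (adjusted p = 0.017) with the length correction.

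Against 22.9% and 20.7% of all genes tested, 11 of 23 iNKT17 genes were higher (47.8%) and 0 lower, with a median of 0.32. The count of lower genes was 0 by edgeR at an unadjusted p under 0.05 and 0 by DESeq2 and limma-voom too, and 2 with the length correction. Their median response was -1.11 in WT FT and -0.88 in KO FT. These genes had 7 higher and 5 lower members in the other 12 libraries, with a median of 0.10. Il7r stood at 528, 554 and 552 CPM after PBS and 145, 132 and 149.7 CPM after aGC in the WT FT libraries, and at 449, 451 and 402 CPM after PBS and 246, 266 and 206 CPM after aGC in the KO FT libraries. Il7r, the receptor for the survival cytokine IL-7, was lower after aGC in both arms and by less in KO FT, a difference of 1.08 (SE 0.12, adjusted p = 1.7e-07). Ccr2, an inflammatory homing receptor, had one of 0.96 (SE 0.13, adjusted p = 3.5e-06), which was 0.55 with the length correction and 0.58 with the GC correction and still passed. The summed gamma delta T cell and ILC markers, of which iNKT17 cells express several, were also lower after aGC in both arms and by less in KO FT, and their part in these differences was not tested. The invariant receptor segments did not pass at any of 8 members by edgeR, with 2 lower at an unadjusted p under 0.05, 2 lower by DESeq2 and 0 by limma-voom. Trav11 had means of 682 ± 24.1 CPM after PBS and 417 ± 13 CPM after aGC in the WT FT libraries, and 847 ± 28.1 CPM after PBS and 457 ± 41.6 CPM after aGC in the KO FT libraries, a difference of -0.18 (SE 0.07, adjusted p = 0.056). The Trav11 value was 0.12 with the length correction and passed as lower with DESeq2, RLE scaling, the GC correction and the filter of 10 CPM.

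More members were higher than lower among cytokine receptors, homing receptors and genes of the T cell receptor pathway. Of the cytokine receptor and feedback genes 18 of 30 were higher and 3 lower, with a median of 0.44. Tgfbr2 stood at 162, 166 and 161 CPM after PBS and 69.4, 66.2 and 66 CPM after aGC in the WT FT libraries, and at 109.6, 106 and 118 CPM after PBS and 160, 146 and 160.3 CPM after aGC in the KO FT libraries. Tgfbr2, the ligand-binding receptor for TGF beta, was lower after aGC in WT FT and higher after aGC in KO FT in every library, a difference of 1.76 (SE 0.08, adjusted p = 2.2e-13). Stat6, which relays IL-4 signals, had a difference of 0.77 (SE 0.06, adjusted p = 2.9e-09). Of the homing and retention genes 15 of 22 were higher (68.2%) and 1 lower (4.55%), with a median of 0.53. Ccr9 stood at 296, 303 and 315 CPM after PBS and 163, 171 and 161 CPM after aGC in the WT FT libraries, and at 205, 195 and 203 CPM after PBS and 271, 245 and 253 CPM after aGC in the KO FT libraries. Ccr9, the receptor for the small-intestinal chemokine CCL25, was lower after aGC in WT FT and higher after aGC in KO FT, a difference of 1.23 (SE 0.07, adjusted p = 1.7e-11). P2rx7, a receptor for extracellular ATP, had one of 0.97 (SE 0.09, adjusted p = 2.2e-08). Of the TCR complex and proximal signalling genes 15 of 31 were higher (48.4%) and 3 lower (9.68%). Plcg1, a phospholipase that acts downstream of the receptor, had a difference of 1.11 (SE 0.13, adjusted p = 2.5e-07). Slamf7, of the SLAM receptors, of which 2 of 8 were higher and 1 lower, had a difference of -0.56 (SE 0.09, adjusted p = 2.0e-05). With the length correction Ccr9 was at 0.78 and still passed, and 13 receptor and 12 homing genes were higher and 6 and 3 lower. The cytokine receptor genes had 5 higher and 10 lower in the other 12 libraries, with a median of -0.001. The homing genes had 8 and 4 there (median 0.15) and the TCR genes 8 and 2 (median 0.03). The difference between both sets passed at 18 of 30, 11 of 22 and 12 of 31 genes of these lists. The summed naive T cell markers, a list that shares Ccr9, were lower after aGC in both arms and by more in WT FT, and their part in these differences was not tested.

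Ctse was among the 12 largest higher differences and Irf2bp2 among the 12 largest lower ones. Ctse stood at 23.4, 23.3 and 24.2 CPM after PBS and 9.96, 13.3 and 10.4 CPM after aGC in the WT FT libraries, and at 32.6, 33.6 and 36 CPM after PBS and 274, 235 and 269 CPM after aGC in the KO FT libraries. Ctse (chromosome 1, 131638306 to 131675505, GRCm38), which encodes the endosomal protease cathepsin E, was lower after aGC than after PBS in WT FT and higher in KO FT, a difference of 3.99 (SE 0.12, adjusted p = 8.0e-17). Outside the 4 groups Ctse was at 20.1 ± 0.631 CPM in KO FT and 21.3 ± 1.02 CPM in WT FT after aGC. Irf2bp2 stood at 43.1, 42.2 and 44.2 CPM after PBS and 60.1, 55.4 and 62.2 CPM after aGC in the WT FT libraries, and at 219, 207 and 202 CPM after PBS and 41.1, 46.3 and 46.4 CPM after aGC in the KO FT libraries. Irf2bp2 (chromosome 8, 126588296 to 126593986), a transcriptional corepressor that binds IRF2, was high in the KO FT PBS libraries, and its difference of -2.69 (SE 0.12, adjusted p = 3.2e-13) stands beside levels of 41.1 to 62.2 CPM in both arms after aGC. Outside these groups Irf2bp2 had means of 28.9 to 43.2 CPM.

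The other large differences were at lower levels. Nfil3, a basic leucine zipper transcription factor, had means of 1.54 ± 0.344 CPM after PBS and 18.3 ± 1.71 CPM after aGC in the WT FT libraries, and 4.46 ± 1.34 CPM after PBS and 11.8 ± 1.13 CPM after aGC in the KO FT libraries, a difference of -2.19 (SE 0.26, adjusted p = 5.3e-07). Snx9, of endocytosis, Nfix, a nuclear factor I protein, and Tnip3, an inhibitor of NF-kB, had differences of -2.89 (SE 0.27, adjusted p = 2.0e-08), -2.80 (SE 0.48, adjusted p = 5.1e-05) and -2.20 (SE 0.58, adjusted p = 0.0037), and stood at 9.45 to 16.9 CPM in the WT FT aGC libraries. Among the higher genes, Susd2 was at 12.6, 14.1 and 12.8 CPM and 1.7, 2.33 and 1.32 CPM in WT FT (PBS and aGC) and at 15.8, 12.7 and 12.3 CPM and 11.7, 12.4 and 13.7 CPM in KO FT. The WT FT aGC libraries of Susd2 were below all others, and the difference was 2.76 (SE 0.25, adjusted p = 1.2e-08). Tlr6, a toll-like receptor for bacterial lipopeptides, had a difference of 2.75 (SE 0.33, adjusted p = 5.6e-07), from means of 12.7 ± 0.997 CPM after PBS and 1.25 ± 0.0786 CPM after aGC in the WT FT libraries, and 8.84 ± 1 CPM after PBS and 5.96 ± 1.46 CPM after aGC in the KO FT libraries. Itga3, an integrin chain, and Tnks, the enzyme tankyrase, had differences of 2.77 (SE 0.41, adjusted p = 7.8e-06) and 2.48 (SE 0.40, adjusted p = 2.6e-05). The remaining 6 higher and 3 lower genes lay at 2.36 to 3.35 and at -3.34 to -2.18, and included 5 zinc finger genes.

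Markers of other cells were summed per library as a description, with no test, and given in the order WT FT PBS, WT FT aGC, KO FT PBS and KO FT aGC. The 20 B cell markers summed to 1157 to 1210, 619 to 698, 1174 to 1221 and 684 to 742 CPM, of which Ighm made up 441 to 1050 CPM. The 18 dendritic cell and macrophage markers summed to 365 to 372, 417 to 444, 330.5 to 370.1 and 343 to 380.0 CPM, led by Ccr7 and Bst2, which T cells express, with Itgax at 0 to 0.468 CPM. The 10 conventional CD8 T cell markers summed to 634 to 661, 755 to 790.2, 608 to 674 and 687 to 731 CPM, with Cd160 and Cd226, which iNKT cells express, as the largest. The 16 naive T cell markers summed to 2310 to 2331, 1673 to 1766, 2069 to 2122 and 1910 to 1986 CPM, and in this list aGC was below PBS in both arms, by more in WT FT. The 13 measured gamma delta T cell and ILC markers summed to 3578 to 3746, 1664 to 1803, 3552 to 3757 and 2124 to 2450 CPM, led by Id2, with Trdc at 0.662 to 2.56 CPM. The 9 regulatory T cell markers summed to 433 to 458, 535 to 556, 354 to 382 and 489 to 515 CPM, with Foxp3 at 0 to 1.66 CPM. The 10 plasma cell markers summed to 306 to 321, 266 to 293, 308 to 314 and 258 to 282 CPM, led by Xbp1, with Jchain at 0 to 0.811 CPM. The neutrophil, mast cell and erythroid markers summed to 0.986 to 1.42, 0.799 to 1.03, 2.64 to 3.26 and 0.441 to 1.07 CPM, with 3 of 13 at 0 in all 12, and the stromal and epithelial markers summed to 73.6 to 85.5, 47.8 to 63, 63.3 to 64 and 72.6 to 76.8 CPM. The part of these cells in the differences was not tested.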

How the data were processed

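RNA of mouse iNKT cells was measured in 24 libraries, of which 12 enter the difference of responses and the other 12 serve for comparison and for the shared estimate of spread. Expected counts per gene, in whole numbers, were made by the authors with kallisto on GRCm38 (mm10), per the submitters' processing notes. Its version, the annotation and the summing of transcripts to genes were not given in the sources used here. Libraries were made by Nextera XT tagmentation, per the labels' protocols, which does not keep the strand, so reads of overlapping or antisense genes cannot be told apart. Of 55335 genes in the table, 55154 were matched to GENCODE M21 by Ensembl identifier and 181 were not.

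Genes were kept by filterByExpr in edgeR with 8 groups (minimum count 10, minimum total 15), and counts were scaled by TMM. Genes on X and Y (484) and those without a position were dropped, which left 15458. The quasi-likelihood fit used 8 group means over all 24 libraries with 16 residual degrees of freedom, and the difference of responses was a contrast of 4 of them. P-values were two-sided and adjusted by Benjamini-Hochberg over all 15458 genes. SE is the log2 difference divided by the square root of F. Levels are CPM on TMM-scaled totals, medians of responses and gaps were taken on log2 CPM (prior count 2), and plots used a pseudocount of 0.5 CPM. The fit was tested on simulated data. Transcript length and GC content of a gene are medians over its GENCODE M21 transcripts. Fits were made in R 4.3.3 with edgeR 4.0.16, with limma 3.58.1 and DESeq2 1.42.0 for alternatives, and tables in Python 3.11.15 with pandas 2.3.3.

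The libraries, the 35 gene lists (757 entries) and the tests were chosen with earlier results of these data known, so no list is independent evidence of its direction. The genes named were drawn from the 12 largest differences in each direction among protein-coding genes with a named symbol that passed, reached 10 CPM in a group and kept their sign in all 81 choices of 1 library per group. They were also drawn from each list, up to 4 passing members by lowest adjusted p and up to 2 others by highest level, and always included Ifng, Il4, Mki67 and the factors Tbx21, Gata3, Zbtb16 and Bcl6. Of 168 genes covered by this rule, 71 are described with their values. Lists of other cells (9 of the 35) were described without a test.

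Counting error alone did not account for the spread in a group: chi-square divided by its degrees of freedom was 3.98 to 15.3 for the 12 pairs of libraries. Alternatives were RLE scaling, DESeq2, limma-voom, other filters, a fit on the 12 libraries, a replicate block, X and Y kept, each library left out, 1 profile per group and, added after seeing the data, corrections for length and GC content.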

Additional observations from a re-analysis of the deposited data

Results flagged for a closer look

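For each gene described above, the difference of responses in the low-Cd8a libraries was tested against that in the other 12 libraries (contrast in the edgeR fit, adjusted p under 0.05, 35.7% of all genes passing), and 52 genes differed between both sets, leaving out Penk, which had 0 counts in 1 of the groups. The values below are the low-Cd8a difference minus the other difference, on the log2 scale, and no explanation is offered for them. Genes that passed in both sets with opposite signs had the values Ccl1 -5.43, Lif 7.57, Irf2bp2 -3.14, Snx9 -3.52, Susd2 3.68, Tnf -0.70, Egr1 0.91, Zbtb16 1.37, Nt5e 1.501, Ctla4 -2.30, Ifit2 2.49, Ifit1bl1 1.22, Irgm2 2.26, Il17rb 1.32, Cd4 1.43 and Bcl2l2 -5.76. Other cytokine, chemokine and effector genes had Ifng -1.20, Xcl1 -1.21 and Gzmb -3.20. Other transcription factors had Bcl6 -1.49, Nfatc1 0.71, Myc -0.98, Nfkbid -0.58, Nfil3 -1.91, Nfix -2.32, Stat6 0.30, Atf4 -0.46 and Srebf1 0.79. Surface receptors and their signalling genes had Cd69 -0.75, Cd274 0.65, Il7r 0.95, Ccr2 0.90, Tgfbr2 1.23, Ccr9 1.29, P2rx7 0.92, Tlr6 2.46, Itga3 1.51 and Cd1d1 1.11. Genes of ribosomes, energy supply, lipid synthesis and protein folding had Rpl4 -0.51, Rpl7 -0.58, Ncl -0.55, Npm1 -0.81, Eno1 -0.42, Atp5a1 -0.48, Cox5a -0.88, Scd2 1.22, Fasn -1.27, Pdia6 -0.44 and Hspe1 -1.10. The remaining genes had Ctse 4.28, Ddx58 1.13 and Bid -0.63. With 3 libraries in each group, no single library was tested for standing apart from its group.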

How the results depend on the processing

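Of the 70 described genes with a difference, none changed sign where the difference passed. Between 65 and 70 kept their side of the threshold under RLE scaling, DESeq2, limma-voom, no filter, the filter of 10 CPM (66 genes left), the fit on the 12 libraries, X and Y kept, each library left out, and the corrections for length and GC content. The exceptions with the length correction were Il4, which no longer passed, and Tbx21, Gata3 and Bcl6, which passed, and in the others Tbx21, Gata3 and Trav11, which passed in 1 or more. With 1 profile per group, the fit gave another quantity, a donor-by-treatment term averaged over both sets of libraries (Lif 0.42, from 4.18 and -3.39). For it, with 8 observations and 2 residual degrees of freedom, the counts of higher, lower, 2-fold higher and 2-fold lower genes were 0, 0, 0 and 0. These counts say nothing about the difference in the 4 groups. With the filter of 10 CPM, which tests fewer genes, 614 genes were 2-fold higher and 318 2-fold lower, and 3481 passed in the other 12 libraries. The other counts over all genes tested stayed within 1.5 times their main value under the alternatives run for them. The counts in the other 12 libraries and between both sets were not run with 1 profile per group or in the fit on the 12 libraries. With the length correction list counts moved by more, such as the TCR-induced transcription factors from 10 to 4 higher and the interferon-inducible GTPases from 4 to 9 lower.

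Leaving out each library in turn gave 3309 to 3494 higher and 2970 to 3242 lower genes, 1547 to 1628 and 721 to 990 of them 2-fold, 5247 to 5510 genes in the other 12 libraries and 5220 to 5606 between both sets.

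A replicate block, with the label's replicate number as the pairing, gave 3479 higher and 3126 lower genes. Deviations from the group means had correlations of -0.23 to 0.44 in 18 same-numbered pairs and -0.35 to 0.23 in 36 others. Of the 12 libraries, 7 correlated best with a library of their own number in another group. Whether the numbers pair the libraries was not tested. The labels tie a number to no shared mouse or day. Lif had 7 counts over the 3 KO FT PBS libraries and Penk 0 over the 3 WT FT PBS libraries, so that depth limits the size of their differences.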
